A study of Mus musculus with 14 samples.

Results

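The *Sox* genes encode transcription factors that bind DNA through an HMG box, a domain that sits in the minor groove and bends the helix. They are sorted into groups by the likeness of that box: SOX2 is a SoxB1 factor of stem cells, SOX21 a SoxB2 factor known as a repressor, SOX4 and SOX11 are SoxC activators of progenitors, SOX5, SOX6 and SOX13 are SoxD factors without an activation domain of their own, SOX9 is a SoxE factor and SOX15 the SoxG factor. In skin, SOX9 is known as a factor of the hair follicle outer root sheath and its stem cells, and in cartilage it works with SOX5 and SOX6. The 10 members described here are the MYC-SOX9 transgene and the endogenous genes *Sox9*, *Sox2*, *Sox4*, *Sox5*, *Sox6*, *Sox11*, *Sox13*, *Sox15* and *Sox21*, chosen by gene symbol, and the transgene by its row name, out of 54332 rows of a table of RNA levels.

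RNA was measured in 10 libraries of sorted epidermal stem cells (EpdSCs) from back skin, with 2 biological replicates at each of 5 timepoints. All were from CD1 mice of genotype K14rtTA; TRE-myc-Sox9, labelled male, so that the D0 controls carried the transgene too. In these mice a *Krt14* promoter, active in basal keratinocytes, drives the rtTA activator, which in the presence of doxycycline (DOX) switches on a MYC-tagged *Sox9* coding sequence behind a tetracycline-responsive element and a minimal promoter. D0 cells were taken at P21, the age at which DOX was started, and W1, W2 and W6 cells after 1, 2 and 6 weeks of DOX, at P28, P35 and P63. W12 cells came after 12 weeks of DOX from newborn skin of the same genotype that was grafted onto female *Nude* hosts and left to heal for 21 days. Cells were sorted as CD31, CD45, CD117 and CD140a negative, CD49f high, CD34 negative and Ly6A high. No RNA of mice on DOX without the transgene was analysed here, so time on DOX cannot be told apart from age up to W6, nor from grafting at W12. Values are TPM, transcript abundances that take transcript length into account and sum to 1000000 in each library, so the read depth is unknown and no counting error can be given.

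All 8 EpdSC markers were at 42.2 TPM or more in every library, with the integrin gene *Itga6* at 102 to 290 TPM and *Itgb4* at 42.2 to 232 TPM, and their sum, nearly all of it keratin RNA, lay between 35409 and 60457 TPM. Within it *Krt15* went from 11241 and 11928 TPM at D0 to 322 and 242 TPM at W12 (−5.37, adjusted *P* = 5.73e-05), and *Krt15*, *Krt5*, *Col17a1*, *Itgb4* and *Trp63* were called lower than at D0 at W6 and W12. *Itga6* was called lower at W6 and not at W12 (−0.52, adjusted *P* = 0.0614). *Ly6a*, whose product was sorted for, was called lower at W2 and W6 and higher at W12 (0.80, adjusted *P* = 0.0211), and *Krt14*, highest at W12, was called at no timepoint against D0. D0 replicate 2 went against its label of male, with 4.61 TPM of *Xist* and 0.0278 TPM of the Y-linked *Ddx3y*, against 0.00103 and 32.1 TPM in D0 replicate 1. Both W12 libraries held *Xist* (5.51 and 3.50 TPM) beside *Ddx3y* (11.0 and 12.9 TPM), and all 4 endothelial markers: their summed TPM was 51.8 and 112 at W12 and between 0.0598 and 1.42 in the other 8 libraries, although the sort was against CD31. W6 replicate 2 stood apart from W6 replicate 1 in several genes chosen after their values were seen, such as *Wwp2* (148 against 39.6 TPM), *S100b* (7.28 against 0.452 TPM), *Col11a1* (4.89 against 0.190 TPM) and *Lgr5* (5.80 against 0.769 TPM). Changes were tested with limma on log2(TPM + 1), over the 13110 genes whose mean TPM was 1 or more, and a gene was called at a Benjamini-Hochberg adjusted *P* under 0.05. Such log2 changes understate the change of genes with low TPM. A scaling of the libraries by median ratios moved the median change of all genes from −0.16 to −0.01 between W12 and W6, and the share of calls that were higher from 33.0% to 55.0% in that comparison and from 58.6% to 47.4% at W1 against D0.

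The members share the start of the HMG box, which is shown because it bears on how well their reads can be told apart. The 27 bases below are the same stretch of the box in each coding sequence of GENCODE M21 (GRCm38), 5′ to 3′, with capitals where a base differs from *Sox9*.
Sox9: aagcgacccatgaacgccttcatggtg
Sox21: aagcgGcccatgaacgccttcatggtg
Sox15: aagcgGcccatgaacgccttcatggtg
Sox4: aagcgGcccatgaacgccttTatggtg
Sox11: aaAcgGcccatgaacgccttcatggtg
Sox13: aagAgacccatgaaTgccttcatggtg
Sox2: aagAgGcccatgaacgccttcatggtA
Sox5: aagcgTccAatgaaTgccttcatggtg
Sox6: aagcgaccAatgaaTgcGttcatggtT
The stretch differed from that of *Sox9* by 1 base in *Sox15* and *Sox21* and by 4 bases in *Sox6*, and it encodes the same 9 residues in all 9 genes. Over the whole box of 210 bases, the share of bases identical to *Sox9* was 75.2% in *Sox21* and *Sox11*, 74.3% in *Sox4*, 72.9% in *Sox2*, 70.0% in *Sox15*, 62.9% in *Sox13*, 61.4% in *Sox5* and 56.7% in *Sox6*. The SoxD genes were thus the least like *Sox9* in the box. No run of bases identical to *Sox9* in the box was longer than 24. Over whole transcripts, some 31-base stretches also occur in another *Sox* gene: 25 of *Sox9*, 21 of *Sox4*, 18 each of *Sox2* and *Sox11*, 13 of *Sox21* and 5 of *Sox13*. None of *Sox5*, *Sox6* or *Sox15* do.

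The transgene carries the *Sox9* coding sequence, and the sequence of its row in the authors' index was not used here. The endogenous *Sox9* transcript (chr11:112782224-112787760, + strand, GRCm38) has 4135 bases, of which the 1521 coding bases (36.8%) can also stand in the transgene. The study's genotyping primers show which part sets the transgene apart.
MYC forward primer: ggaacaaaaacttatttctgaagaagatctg
Sox9 reverse primer: ccctgagattgcccagagtg
The reverse primer was antisense to bases 679 to 698 of the *Sox9* coding sequence. The forward primer, in the MYC tag, matched no *Sox9* transcript and 0 transcripts of other genes. Reads from within the coding sequence cannot be told apart between the rows of MYC-SOX9 and *Sox9* by their sequence.

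TPM were assigned to MYC-SOX9 before DOX, and every library after DOX had more of them. How much of the D0 value comes from reads of endogenous *Sox9* was not tested. It stood at 89.6 and 45.6 TPM at D0, at 3387 and 3414 TPM at W1, at 1892 and 1469 TPM at W2, at 1108 and 859 TPM at W6 and at 606 and 903 TPM at W12. All 8 libraries after DOX lay above both D0 libraries. The W1 libraries lay above those of W2, and those of W2 above those of W6, whereas the ranges of W6 and W12 overlapped. The mean was 50.3 times that of D0 at W1, 24.9 times at W2, 14.6 times at W6 and 11.2 times at W12. On the log2 scale the rise against D0 was 5.71 (SE 0.32, adjusted *P* = 8.07e-05) at W1 and 3.51 (SE 0.32, adjusted *P* = 9.33e-05) at W12, and it was called at all 4 timepoints under all 12 alternative analyses. Without D0 replicate 2 these values were 5.23 and 3.03. The steps down did not pass the test: −1.03 from W1 to W2 (SE 0.32, adjusted *P* = 0.202), −0.77 from W2 to W6 (SE 0.32, adjusted *P* = 0.125) and −0.40 from W6 to W12 (SE 0.32, adjusted *P* = 0.419).

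**Figure D1:**
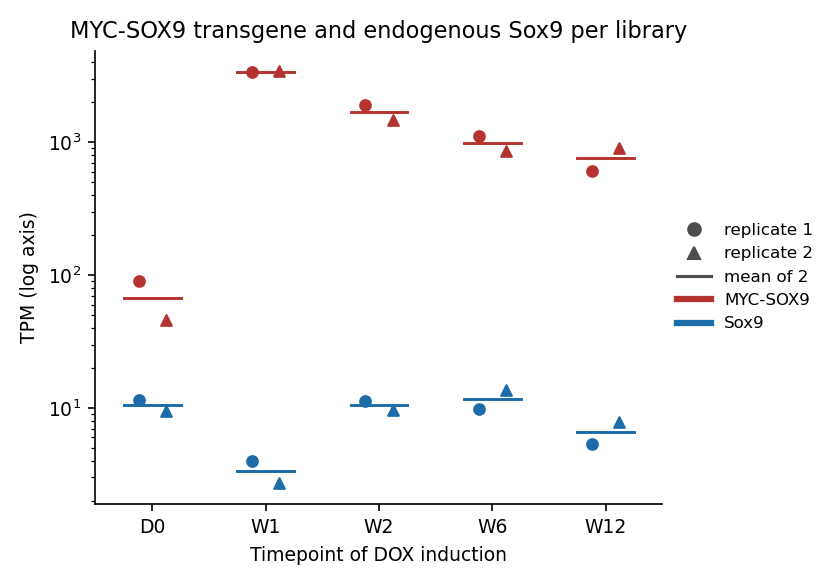
TPM of MYC-SOX9 (red) and endogenous *Sox9* (blue) on a log axis at the 5 timepoints; circles are replicate 1, triangles replicate 2 and lines the mean of 2 libraries. MYC-SOX9 lies at 3387 and 3414 TPM at W1, where *Sox9* has its lowest values, 4.02 and 2.71 TPM.

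By level, MYC-SOX9 ranked 1701 and 3180 among all rows of the D0 libraries and 26 and 25 at W1, and between 64 and 282 in the other 6 libraries. Relative to *Krt14*, the gene whose promoter drives rtTA and whose reads can be shared with related keratins, there were 3.0 and 1.47 TPM of MYC-SOX9 per 1000 TPM of *Krt14* at D0. This ratio was 163 and 156 at W1, 94.6 and 64.4 at W2, 44.8 and 33.7 at W6, and 17.1 and 24 at W12. After W1 the libraries of each timepoint lay below those of the timepoint before. *Krt14* itself was at 24719 and 25508 TPM at W6 and at 35371 and 37666 TPM at W12.

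The transgene made up nearly all TPM assigned to SOX9 after DOX. Its share of MYC-SOX9 and *Sox9* together was 88.6% and 82.8% at D0 and between 98.4% and 99.9% in the 8 later libraries. The means were 85.7% ± 4.11 (SD, n = 2) and 99.3% ± 0.472 (SD, n = 8), a difference of 13.6 percentage points with *P* = 0.0222 in an exact two-sided permutation test over 45 splits, the smallest *P* they can give. The 8 libraries come from 4 timepoints and are not replicates of 1 state. The summed TPM, 101 and 55.1 at D0, ranged from 611 to 3417 after DOX, with *P* = 0.0444 in the exact test, and leaving out any library raised this *P* to between 0.0556 and 0.333. With 1 D0 library left out, the share cannot reach 0.05 either, and its exact *P* was 0.111.

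Endogenous *Sox9* fell at W1, and its changes at the later timepoints did not pass the test. It was at 11.5 and 9.47 TPM at D0, at 4.02 and 2.71 TPM at W1, at 11.4 and 9.68 TPM at W2, at 9.88 and 13.6 TPM at W6 and at 5.31 and 7.91 TPM at W12. Both W1 libraries lay below all others, while the W2 and W6 ranges overlapped that of D0. The log2 change at W1 was −1.41 (SE 0.26, adjusted *P* = 0.0110), with −1.53 (adjusted *P* = 0.0293) without D0 replicate 2 and −1.19 (adjusted *P* = 0.104) without W1 replicate 2. It was 0.0060 (SE 0.26, adjusted *P* = 0.993) at W2, 0.14 (SE 0.26, adjusted *P* = 0.706) at W6 and −0.61 (SE 0.26, adjusted *P* = 0.0852) at W12. The W1 call was also lost over all genes with a TPM above 0 (adjusted *P* = 0.0541) and with only the 4 libraries of D0 and W1 (adjusted *P* = 0.0746). The lowest *Sox9* values thus stood beside the highest MYC-SOX9 values, and the part that reads shared by both rows had in this was not tested. Fewer cells with a gene on and less RNA per cell cannot be told apart in such bulk libraries, here and below.

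Of the 10 members, 7 passed the filter of a mean of 1 TPM and *Sox2*, *Sox5* and *Sox11* did not. Against D0, 3 of the 7 were called at W1, 2 higher and 1 lower, where 9.89% of all genes tested were called, 5.79% higher and 4.10% lower. At W2 the 5 members called, 4 higher and 1 lower, stood beside 15.7% of all genes (9.06% higher, 6.64% lower). The 5 called at W6, 3 higher and 2 lower, stood beside 32.4% (18.3% higher, 14.1% lower), and the 6 called at W12, 3 in each direction, beside 43.0% (17.9% higher, 25.1% lower). Without the transgene, 2, 4, 4 and 5 of the 6 endogenous genes tested were called at W1, W2, W6 and W12. Leaving out D0 replicate 2 gave 3, 3, 5 and 5 of the 7, and leaving out W1 replicate 2 or W2 replicate 2 gave 1 at that timepoint.

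Between successive timepoints, none of the 7 was called from W1 to W2 with limma, where 5 had an unadjusted *P* under 0.05 and 0.114% of all genes were called (0.0458% higher, 0.0686% lower). From W2 to W6, 2 were higher and 2 lower, beside 7.99% and 8.31% of all genes (16.3% together), and 1 was called without either W2 library. From W6 to W12, 2 were lower and none higher, beside 13.5% and 6.66% of all genes (20.2% together). With 2 libraries a timepoint, ranges that do not overlap are common. Against D0 they were apart for 6, 6, 6 and 7 of the 7 members at W1, W2, W6 and W12, and for 55.2%, 61.8%, 62.5% and 74.7% of all genes. Between successive timepoints they were apart for 7, 5 and 3 of the 7, and for 61.3%, 65.0% and 60.3% of all genes. The median log2 change of the 7 was −0.21, 0.57, 0.14 and −0.59 at W1, W2, W6 and W12 against D0, and that of all genes 0.09, 0.06, 0.08 and −0.08.

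**Figure D2:**
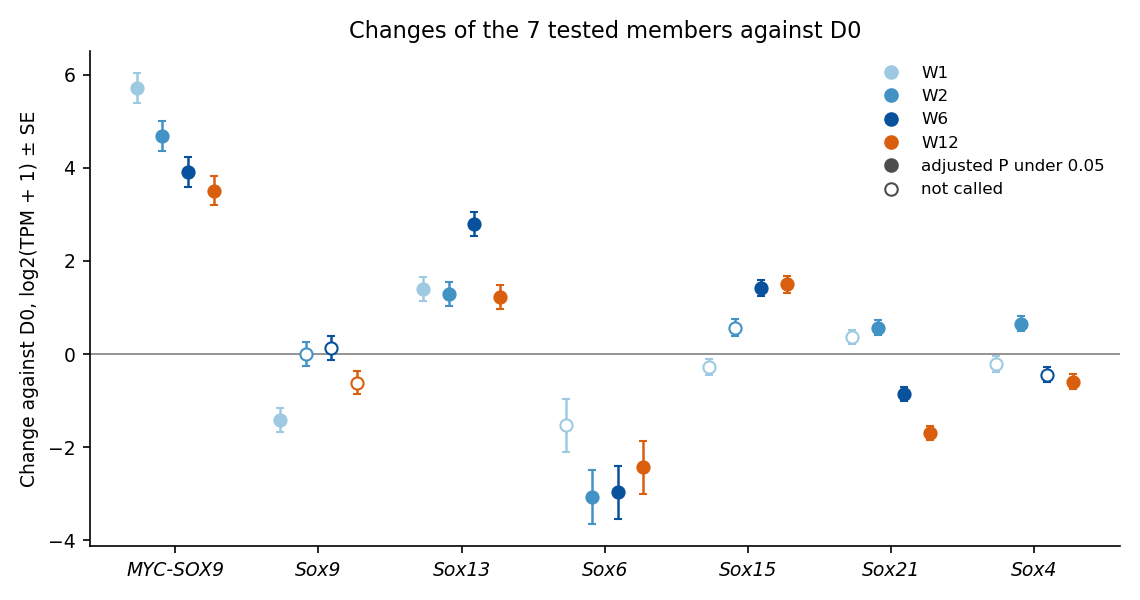
Change against D0 on the log2(TPM + 1) scale for the 7 tested members, with standard errors as bars, at W1, W2, W6 (blues) and W12 (orange); filled points passed an adjusted *P* of 0.05. *Sox15* and *Sox21* lie on opposite sides of 0 at W6 and W12, at 1.42 and 1.50 against −0.85 and −1.69.

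Among the SoxD genes, *Sox6* fell and *Sox13* rose. *Sox6* (chr7:115470872-116038796, − strand) stood at 48.6 and 36.6 TPM at D0, 15.2 and 12.8 TPM at W1, 4.81 and 3.56 TPM at W2, 1.70 and 10.3 TPM at W6 and 9.72 and 5.02 TPM at W12. Every library after DOX lay below both D0 libraries, and the W6 replicates lay farther apart than those of any other timepoint after DOX. The fall was −1.53 at W1 (SE 0.57, adjusted *P* = 0.135), which did not pass the test, −3.07 at W2 (SE 0.57, adjusted *P* = 0.00900), −2.97 at W6 (SE 0.57, adjusted *P* = 0.00584) and −2.43 at W12 (SE 0.57, adjusted *P* = 0.00962). The W6 value was −1.94 (adjusted *P* = 0.00995) without W6 replicate 1 and −4.00 (adjusted *P* = 0.000525) without W6 replicate 2. In the latter fit W12 was above W6 by 1.57 (adjusted *P* = 0.0229), against 0.54 (SE 0.57, adjusted *P* = 0.548) with all libraries. The W2 call was lost without W2 replicate 2 (−2.89, adjusted *P* = 0.0688) and over all genes with a TPM above 0 (adjusted *P* = 0.0636), and the W12 call without W12 replicate 2 (−2.01, adjusted *P* = 0.0757). With only the 4 libraries of the comparison, the W6 call was lost too (adjusted *P* = 0.0579). None of the 31-base stretches of the *Sox6* transcripts occurs in another annotated gene. The antisense genes *Sox6os* and *Gm45025* within its span reached at most 0.672 and 0.0666 TPM.

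*Sox13* (chr1:133382303-133424377, − strand) was near the bottom of the range before DOX. It had 0.335 and 0.661 TPM at D0, 2.94 and 2.94 TPM at W1, 2.84 and 2.50 TPM at W2, 10.6 and 8.30 TPM at W6 and 1.82 and 3.26 TPM at W12. All 8 libraries after DOX lay above both D0 libraries, and both W6 libraries above all others. The rise was 1.40 at W1 (SE 0.26, adjusted *P* = 0.0110), 1.30 at W2 (SE 0.26, adjusted *P* = 0.0115), 2.80 at W6 (SE 0.26, adjusted *P* = 0.000192) and 1.22 at W12 (SE 0.26, adjusted *P* = 0.00581). From W2 to W6 it rose by 1.50 (SE 0.26, adjusted *P* = 0.00946) and from W6 to W12 it fell by 1.58 (SE 0.26, adjusted *P* = 0.00480), or by 1.45 (adjusted *P* = 0.00849) after median-ratio scaling. Leaving out a W1 library ended the W1 call (adjusted *P* = 0.0653 and 0.0833), and leaving out a W2 library ended the W2 call (adjusted *P* = 0.0863 and 0.0687) and that of W6 against W2 (adjusted *P* = 0.0713 and 0.0745). The calls at W6 and W12 against D0 and at W12 against W6 were kept in all 11 alternatives that could be fitted for this gene.

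*Sox5*, the closest relative of *Sox6*, stayed low. Its values were 0.0980 and 0.760 TPM at D0, at most 0.387 TPM at W1 and W2, 0.164 and 1.89 TPM at W6 and 1.88 and 2.51 TPM at W12. The 2 W12 libraries and W6 replicate 2 held the highest values, and W6 replicate 1 lay in the range of D0. Of the genes annotated within its span, *Gm44068*, *Sox5it* and *Sox5os1* to *Sox5os5*, none was above 0.181 TPM. Over all 38965 genes with a TPM above 0, the change at W12 was 1.19 (SE 0.45, adjusted *P* = 0.161). Of the TPM of *Sox5*, *Sox6* and *Sox13* together, *Sox6* held 99.1% and 96.3% at D0, 83.0% and 79.3% at W1, 60.3% and 57.1% at W2, 13.7% and 50.2% at W6 and 72.5% and 46.5% at W12. *Sox13* held 0.684% and 1.74% at D0 and 85.0% and 40.6% at W6. The SoxD sum was 49.0 and 38.0 TPM at D0, 7.99 and 6.24 TPM at W2, 12.4 and 20.5 TPM at W6 and 13.4 and 10.8 TPM at W12, so that it was lowest at W2.

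**Figure D3:**
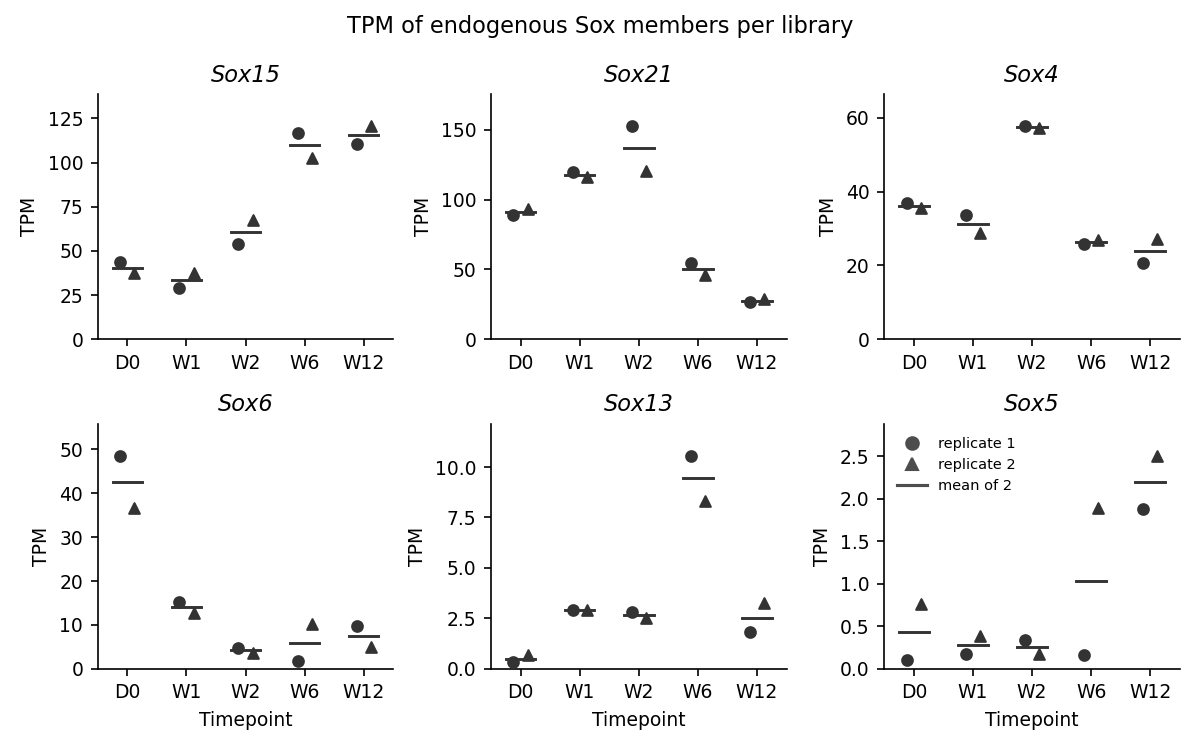
TPM of 6 endogenous members at the 5 timepoints, each panel with its own linear axis from 0; circles are replicate 1, triangles replicate 2 and lines the mean of 2 libraries. *Sox15* rises to 111 and 121 TPM at W12 while *Sox21* falls to 26.7 and 28.6 TPM.

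*Sox15*, whose product has an HMG box close to that of SOX2 and is known in trophoblast and muscle cells, rose late. At chr11:69655314-69656727 on the + strand, it had 43.5 and 37.4 TPM at D0, 29.1 and 37.7 TPM at W1, 54.0 and 67.3 TPM at W2, 117 and 103 TPM at W6 and 111 and 121 TPM at W12. The 4 libraries of W6 and W12 lay above all others. The change was −0.28 at W1 (SE 0.18, adjusted *P* = 0.374) and 0.57 at W2 (SE 0.18, adjusted *P* = 0.0642), neither called, 1.42 at W6 (SE 0.18, adjusted *P* = 0.000823) and 1.50 at W12 (SE 0.18, adjusted *P* = 0.000394). The W6 and W12 calls were kept in all 12 alternatives. From W2 to W6 the rise was 0.85 (SE 0.18, adjusted *P* = 0.0188), and it was lost without either W2 library (0.70 and 1.01, adjusted *P* = 0.154 and 0.0614), with all genes above 0 TPM (adjusted *P* = 0.0599) and with only the 4 libraries (adjusted *P* = 0.0504). The gene shares 31 bases at its end with the antisense gene *Mpdu1*, which stood between 35.1 and 77.9 TPM, and whether the counting used strand is not given in the sources used here.

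*Sox21*, a repressor gene known from hair cuticle and neural progenitors, was the endogenous *Sox* gene with the highest mean at D0 and fell late. At chr14:118233232-118237030 on the − strand, it had 89.3 and 93.1 TPM at D0, 120 and 116 TPM at W1, 153 and 121 TPM at W2, 54.4 and 46.2 TPM at W6 and 26.7 and 28.6 TPM at W12. The W1 and W2 libraries lay above those of D0, and those of W6 and W12 below. At W1 the change of 0.37 did not pass the test (SE 0.15, adjusted *P* = 0.177). The rise at W2 was 0.57 (SE 0.15, adjusted *P* = 0.0384), a call kept in only 3 of 12 alternatives and lost when any of the 4 libraries was left out (0.40 to 0.74, adjusted *P* = 0.0688 to 0.267). The fall was −0.85 at W6 (SE 0.15, adjusted *P* = 0.00443) and −1.69 at W12 (SE 0.15, adjusted *P* = 9.44e-05), the first lost with only the 4 libraries of the comparison (adjusted *P* = 0.0666) and the other kept in all 12 alternatives. It fell by 1.42 from W2 to W6 (SE 0.15, adjusted *P* = 0.00189) and by 0.84 from W6 to W12 (SE 0.15, adjusted *P* = 0.00805). The latter was 0.67 after median-ratio scaling (adjusted *P* = 0.0266), and its call was lost without W12 replicate 1 (−0.79, adjusted *P* = 0.0640). *Sox21* shares 713 exonic bases with the antisense lincRNA *Gm4675*, which was at 1.61 to 4.21 TPM in all 10 libraries.

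The order of *Sox15* and *Sox21* was reversed over the time course. Both D0 libraries had more *Sox21* than *Sox15*, as had those of W1 and W2. At W6 and W12 every library had more *Sox15* than *Sox21*. By summed TPM of 20 endogenous *Sox* genes, *Sox15* made up 17.1% and 15.8% at D0 and 56.5% and 51.6% at W12. The SoxB2 genes, nearly all *Sox21*, made up 35.2% and 39.2% at D0 and 13.6% and 12.2% at W12. The sum itself lay between 196 and 315 TPM in all 10 libraries.

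**Figure D4:**
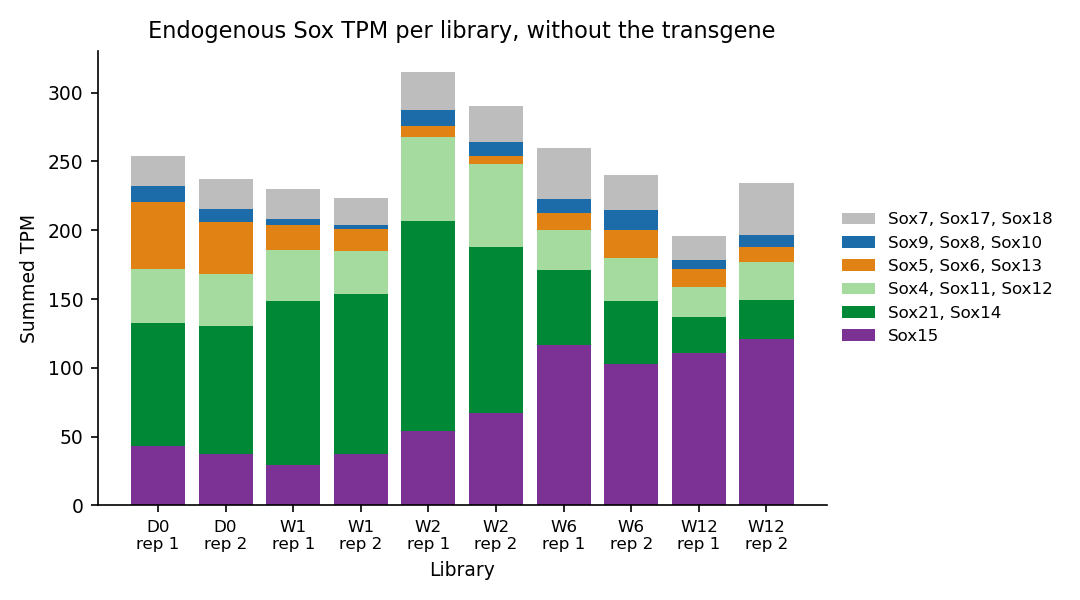
Summed TPM of the endogenous *Sox* genes in each library, stacked by group from *Sox15* at the bottom; the transgene is left out, and genes at the bottom of the range are too small to see. *Sox15* grows from 43.5 and 37.4 TPM at D0 to 111 and 121 TPM at W12, and the layer of *Sox5*, *Sox6* and *Sox13* shrinks from 49.0 and 38.0 TPM at D0 to 7.99 and 6.24 TPM at W2.

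The start region of *Sox15*, the member that rose late, is shown beside that of *Sox6*, the member with the largest fall, because SOX factors bind the letters ACAAT. Each is 300 bases from RefSeq (GRCm38.p6), from 250 before to 50 after an annotated start, 5′ to 3′ on the gene's strand, with ACAAT or its reverse complement ATTGT in capitals.
Sox15, chr11:69654787-69655086, + strand: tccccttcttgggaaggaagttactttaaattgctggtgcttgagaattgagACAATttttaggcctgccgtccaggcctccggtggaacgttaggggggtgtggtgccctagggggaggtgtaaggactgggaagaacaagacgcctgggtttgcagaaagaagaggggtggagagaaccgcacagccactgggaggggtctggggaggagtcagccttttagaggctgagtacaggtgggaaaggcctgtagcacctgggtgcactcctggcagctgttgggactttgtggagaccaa
Sox6, chr7:115801560-115801859, − strand: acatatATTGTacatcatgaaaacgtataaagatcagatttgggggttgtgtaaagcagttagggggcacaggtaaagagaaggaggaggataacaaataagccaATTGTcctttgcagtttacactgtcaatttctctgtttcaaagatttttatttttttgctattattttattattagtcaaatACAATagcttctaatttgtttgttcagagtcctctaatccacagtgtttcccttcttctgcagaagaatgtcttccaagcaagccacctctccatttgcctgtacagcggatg
The *Sox15* region holds 1 match, and this *Sox6* start, of the 6 listed the one with the most matches, holds 3. RefSeq listed 13 start regions for 8 of the members, of which 5, in *Sox5*, *Sox6* and *Sox15*, held a match on either strand, while 31% of all 32851 start regions did. A match describes the letters and is not evidence of binding, and the start that these cells use is not given by gene-level TPM.

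*Sox4*, a SoxC gene active in many progenitors, was highest at W2. It lies at chr13:28948919-28953713 on the − strand and had 36.9 and 35.5 TPM at D0, 33.6 and 28.7 TPM at W1, 57.7 and 57.2 TPM at W2, 25.8 and 26.9 TPM at W6 and 20.6 and 27.2 TPM at W12. The W2 libraries lay above all others, and those of W6 and W12 below those of D0. From W2 to W6 it fell by 1.09 (SE 0.16, adjusted *P* = 0.00599), a call lost without either W2 library (adjusted *P* = 0.0629 and 0.0510). The rise at W2 against D0 was 0.65 (SE 0.16, adjusted *P* = 0.0299) and was lost without D0 replicate 2 (adjusted *P* = 0.0876) or either W2 library (adjusted *P* = 0.156 and 0.161). At W12 *Sox4* was lower than at D0 by −0.59 (SE 0.16, adjusted *P* = 0.0189), a call lost without D0 replicate 2 (−0.62, adjusted *P* = 0.0517), without W12 replicate 1 (−0.40, adjusted *P* = 0.126) and after quantile normalization (−0.40, adjusted *P* = 0.0579). Changes of −0.21 at W1 (SE 0.16, adjusted *P* = 0.460) and −0.44 at W6 (SE 0.16, adjusted *P* = 0.0692) did not pass the test. Of the 31-base stretches of its transcript, 54.7% also occur in other genes, chiefly the antisense lincRNA *Gm26735*, which shares 2616 exonic bases, whose own level was not analysed here, so the level of *Sox4* is uncertain if the counting was without strand.

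*Sox11* and *Sox2* were at the bottom of the range. *Sox11*, the other SoxC member chosen, was at 0.386 TPM in W6 replicate 2 and at most 0.00702 TPM in the other 9 libraries. *Sox2*, a stem cell factor which marks dermal papilla and Merkel cells in skin, was listed at 0 in 6 libraries and reached 0.0763 TPM. The transcript that overlaps it, *Sox2ot*, had 2.07 TPM in W6 replicate 2 and at most 0.218 TPM elsewhere. Neither gene was called over all genes with a TPM above 0 in any of the 7 comparisons.

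By level, the transgene stood between *Sox21* and *Sox6* at D0, where its range overlapped those of both, and above all endogenous members at every later timepoint. At D0 the order of means was *Sox21*, MYC-SOX9, *Sox6*, *Sox15*, *Sox4* and *Sox9*, and *Sox6* and *Sox15* could not be told apart by range. At W6 the order was MYC-SOX9, *Sox15*, *Sox21*, *Sox4* and *Sox9*, each with a range apart from the next, followed by *Sox13* and *Sox6*. The W6 ranges of *Sox9* and *Sox13* overlapped, as did those of *Sox13* and *Sox6*. At W12 *Sox21* and *Sox4* overlapped, as did *Sox6* and *Sox9*.

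For each member tested, the genes with the nearest profile were found by the root mean square difference of z-scored log2(TPM + 1) over the 10 libraries. Nearest to MYC-SOX9 were *Lurap1l* (0.156), *Hspa4l* (0.178) and *Ninj1* (0.249). *Lurap1l* went from 5.02 and 2.81 TPM at D0 to 78.0 and 81.2 TPM at W1 and to 32.0 and 38.3 TPM at W12. Nearest to *Sox6* were *1700025G04Rik* (0.199), *Ivns1abp* (0.261) and the Wnt ligand gene *Wnt3* (0.270). *Wnt3* fell from 138 and 144 TPM at D0 to 19.9 and 13.9 TPM at W2, with 5.96 and 22.8 TPM at W6, the same order of W6 replicates as *Sox6*. For *Sox15* they were *Prxl2a* (0.163), *Gm15706* (0.186) and *Abhd5* (0.201), and for *Sox21* they were *Ei24* (0.135), *Galnt2* (0.143) and the E-cadherin gene *Cdh1* (0.145). *Cdh1* had 274 and 365 TPM at D0, 551 and 466 TPM at W2, and then 77.3 and 89.1 TPM at W12. For *Sox13* they were *Ecd* (0.135), *Dcaf4* (0.216) and *Slc25a13* (0.269), and for *Sox4* *Adh1* (0.317), *Stoml1* (0.327) and *Tmem106c* (0.359). *Sox9* had no profile nearer than *Pltp* (0.331), *Kctd7* (0.409) and a gene with no symbol in the table (0.421).

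Of 11 other *Sox* genes, 4 passed the filter, *Sox17* and *Sox18* only through their W12 values, so that no test of these at W12 is given. The other two, *Sox7* and *Sox12*, were called lower at W12, where 25.1% of all genes were. Neither of the pair was called at W1, W2 or W6 with limma, where 0, 0 and 1 of these had an unadjusted *P* under 0.05 (*Sox7* at W6, 0.49, adjusted *P* = 0.102). *Sox17* and *Sox18*, SoxF genes known from endothelium, had 3.98 and 12 TPM and 4.06 and 12.3 TPM in the W12 replicates, against at most 0.0729 and 0.526 TPM in the other 8 libraries. The endothelial markers *Pecam1* (26.1 and 59.8 TPM) and *Emcn* (22.9 and 45.5 TPM) were higher in the same W12 replicate as both genes, and their part in these values was not tested. *Sox7*, the third SoxF gene, did not follow: it had 21.1 and 21.5 TPM at D0, 36.6 and 25.0 TPM at W6 and 9.79 and 13.0 TPM at W12, a fall of 0.86 on the log2 scale (SE 0.21, adjusted *P* = 0.0108) that was lost without W12 replicate 1 (−0.67, adjusted *P* = 0.0830). The SoxC gene *Sox12* fell from 2.19 and 1.88 TPM at D0 to 0.570 and 0.627 TPM at W12 (−0.92, SE 0.21, adjusted *P* = 0.00870). *Sox8* and *Sox10*, the relatives of *Sox9* in SoxE, had at most 1.05 and 0.599 TPM.

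**Figure D5:**
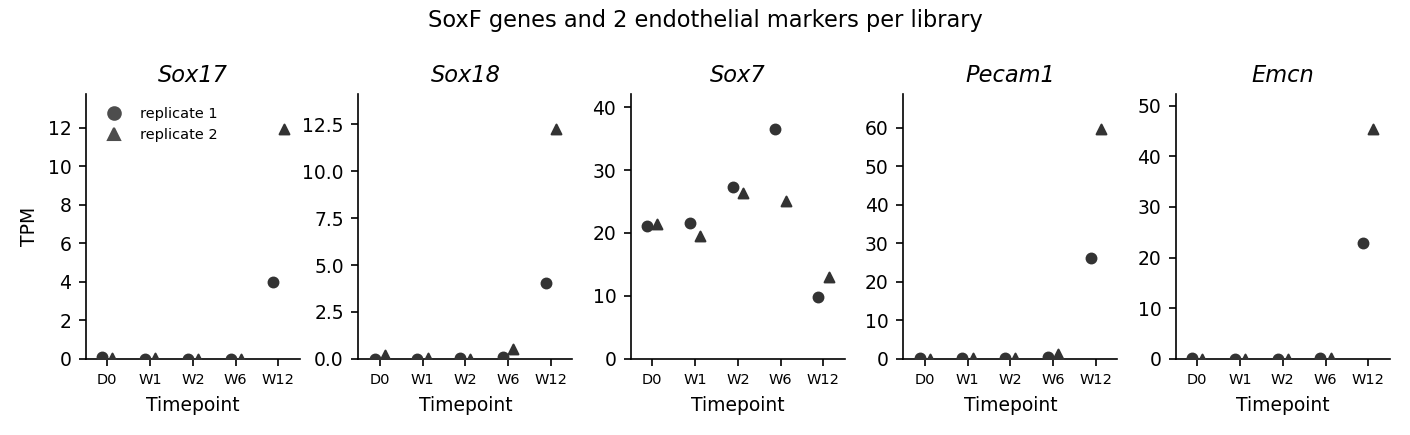
TPM of the SoxF genes *Sox17*, *Sox18* and *Sox7* and of the endothelial markers *Pecam1* and *Emcn* at the 5 timepoints, each panel with its own linear axis from 0; circles are replicate 1 and triangles replicate 2. At W12, replicate 2 is above replicate 1 in all 5 genes, and before W12 *Sox7* is at 19.6 to 36.6 TPM while the other 4 genes are at most 1.14 TPM.

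Of 10 genes of factors that work with SOX9 or with its chromatin partners, chiefly SWI/SNF and MLL subunits and AP-1 factors, all passed the filter. At W12 9 of 10 were lower than at D0 and the tenth was not called, and the median log2 change of the 10 was −1.40, against −0.08 for all genes, of which 25.1% were called lower. Leaving out W12 replicate 1 left 8 lower, *Kmt2d* no longer among them (adjusted *P* = 0.0513). The 9 included *Junb* (−2.66, SE 0.39, adjusted *P* = 0.00105), *Kmt2a* (−1.84, SE 0.33, adjusted *P* = 0.00287), *Fosl2* (−1.76, SE 0.33, adjusted *P* = 0.00350) and *Arid1b* (−1.73, SE 0.16, adjusted *P* = 0.000118). *Taf9* was not called (0.85, SE 0.36, adjusted *P* = 0.0868). At W1 and W2 *Junb* was the gene of the list that was called, with 5321 and 9271 TPM at D0 and 1218 and 656 TPM at W1. *Arid1b*, a subunit of the SWI/SNF remodeller, had 26.7 and 35.1 TPM at D0, 27.8 and 29.8 TPM at W1 and 8.65 and 8.43 TPM at W12, so that its W1 range lay within that of D0. At W6 5 of the 10 were lower and 0 higher (median −0.74, 14.1% of all genes called lower), against 2 lower without D0 replicate 2 and 3 without W6 replicate 2.

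Of 10 genes listed as regulators of *Sox9* or of SOX9 protein, 8 could be tested. At W1 2 were higher and 2 lower than at D0, at W2 3 and 2, at W6 1 and 1, and at W12 0 and 3, beside 9.89%, 15.7%, 32.4% and 43.0% of all genes called in either direction. The 2 called of 8 at W6 and the 3 at W12 were smaller shares than those of all genes. At W2, *Gli3* and *Fbxw7* were called in only 3 of 11 and 3 of 12 alternatives, and leaving out W2 replicate 1 left 1 higher and 1 lower, W2 replicate 2 left 2 higher and none lower, and D0 replicate 2 left 2 higher and 1 lower. The 4 calls at W1 were all lost without W1 replicate 2, with adjusted *P* = 0.0573 for *Gli2*, 0.0874 for *Nfatc1*, 0.135 for *Fbxw7* and 0.0768 for *Fgfr2*. Higher at W1 were *Gli2*, a Hedgehog effector (0.532 and 0.702 TPM at D0, 3.29 and 3.84 TPM at W1), and *Nfatc1*, a factor of hair follicle stem cells (20.7 and 28.3 TPM at D0, 61.8 and 61.2 TPM at W1). Their changes were 1.50 (SE 0.23, adjusted *P* = 0.00501) and 1.31 (SE 0.24, adjusted *P* = 0.0119). By W12 *Gli2* was at 0.589 and 0.717 TPM, overlapping D0, and *Nfatc1* at 12.3 and 13.5 TPM, below D0 (−0.86, SE 0.24, adjusted *P* = 0.0209), a call lost without D0 replicate 2 (−0.64, adjusted *P* = 0.123) or either W12 library (adjusted *P* = 0.104 and 0.0705). *Fbxw7*, a subunit of a ubiquitin ligase that targets SOX9, fell at W1 from 24.6 and 25.1 to 9.54 and 10.1 TPM (−1.26, SE 0.28, adjusted *P* = 0.0251), a call lost without any 1 of these 4 libraries (adjusted *P* = 0.0589 to 0.135). The receptor gene *Fgfr2* fell at all 4 timepoints, from 222 and 395 TPM at D0 to 111 and 93.4 TPM at W1 and 40.5 and 44.8 TPM at W12 (−2.77, SE 0.26, adjusted *P* = 0.000106), and its W2 call was lost without W2 replicate 2 (adjusted *P* = 0.0960). *Sufu*, a Hedgehog pathway inhibitor, fell at W12 from 11.8 and 15.4 to 4.83 and 6.63 TPM (−1.12, SE 0.21, adjusted *P* = 0.00341), a call kept in all 12 alternatives. The beta-catenin gene *Ctnnb1*, the regulator with the highest mean, had 205 and 188 TPM at D0 and 265 and 269 TPM at W6 (0.44, SE 0.13, adjusted *P* = 0.0273), called in 5 of 12 alternatives and not without D0 replicate 2 (adjusted *P* = 0.0819) or either W6 library (adjusted *P* = 0.0578 and 0.0730). *Shh* reached at most 0.0341 TPM.

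Genes that SOX9 switches on in cartilage were mostly at the bottom of the range, with 2 of 16 tested. *Col9a3*, a collagen IX chain, went from 0.218 and 0.0760 TPM at D0 to 14.8 and 16.9 TPM at W1, 13.8 and 11.5 TPM at W2, 11.1 and 39.8 TPM at W6 and 21 and 28.2 TPM at W12. All 8 libraries after DOX lay above both D0 libraries, and the change was called at all 4 timepoints, at 3.88 (SE 0.46, adjusted *P* = 0.00163) at W1. *Col2a1* and *Acan*, defining cartilage genes, reached at most 0.201 and 0.144 TPM. *Wwp2*, a ubiquitin ligase gene known as a target of SOX9 in cartilage, was called at W6 (1.54, SE 0.48, adjusted *P* = 0.0384), where its replicates had 39.6 and 148 TPM, and not without W6 replicate 2 (0.60, adjusted *P* = 0.0671) or either D0 library (adjusted *P* = 0.123 and 0.0941). Of the *Tcf* and *Lef* genes, whose products carry a related HMG box, 3 of 4 were tested and 2 were called at W2, beside 15.7% of all genes, *Tcf7l1* (2.13, SE 0.53, adjusted *P* = 0.0283) and *Tcf7l2* (0.81, SE 0.23, adjusted *P* = 0.0488), calls kept in 5 of 11 and 3 of 12 alternatives. Both were lost without D0 replicate 1 (adjusted *P* = 0.0971 and 0.157) or either W2 library. *Tcf7* was called at W6 (1.06, SE 0.27, adjusted *P* = 0.0181), with 8.21 and 14.3 TPM at D0 and 29.2 and 19.2 TPM at W6, and not without D0 replicate 1 (0.69, adjusted *P* = 0.0644) or W6 replicate 1 (0.77, adjusted *P* = 0.0833).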

How the data were processed

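RNA was measured in 10 time-course libraries of sorted EpdSCs. The authors made the deposited TPM values with Skewer, Salmon 1.4.0 and Tximport 1.12.3 from a GENCODE GRCm38 transcript index to which the TRE-Sox9 transgene was added, and TPM holds no read counts. From there, log2(TPM + 1) was fitted with limma 3.58.1 (R 4.3.3): 5 timepoint means over 10 libraries in 1 fit, a mean of 1 TPM as filter, a trended prior and Benjamini-Hochberg adjustment over 13110 genes. The script was tested on simulated data for W1 against D0, where it called 40% of log2 changes of 1 and 81% of those of 2. It called 0 of them in the wrong direction, and 7 unchanged genes among 13110. A change that did not pass the test can thus be one that was missed. Groups came from the sample titles, and what separates replicates beyond the label of biological replicate is not known, so *P* values measure the spread between these libraries. Shares and sums used exact two-sided permutation tests. Python 3.11.15 (pandas 2.3.3, numpy 2.4.6, scipy 1.17.1, matplotlib 3.10.9) was used for the rest.

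The members and gene lists were chosen with earlier results of these data known. The genes named were the 10 members, up to 4 genes a list with the largest called changes at W12 and the gene of highest mean, the 3 nearest profiles per member, genes that overlap a member, and others said to be chosen after their values were seen or named as defining markers or known roles. Alternatives were another pseudocount, filter, scaling or prior, the replicate block, fewer libraries and each replicate left out. Crossed pairings were added after the data were seen. Positions came from GENCODE M21 (GRCm38), which matched 54097 of 54332 rows. A table of 4 libraries of embryonic placode cells was not used, since it holds the authors' own comparison only.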

Additional observations from a re-analysis of the deposited data

How the results depend on the processing

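Of 25 called changes of members, 11 were called in every refit, and of the 294 refits of these 25 changes 253 kept the call, 41 lost it and 0 turned direction. Leaving out 1 library moved the number of members called to between 1 and 3 at W1 against D0, 1 and 4 at W2 against D0, 1 and 4 at W6 against W2 and 1 and 3 at W12 against W6. Over all genes with a TPM above 0, 2 members were called at W2 against D0. With only the 4 libraries compared, 3 were called at W2 against D0, 3 at W6 against D0 and 1 at W12 against W6, which rests on fewer samples, and a mean of 5 TPM left 1 at W12 against W6. The difference in the transgene share ranged from 10.7 to 16.5 percentage points with a replicate left out, and that of summed SOX9 TPM from 1391 to 1792. The latter was 1220 (exact *P* = 0.178) by medians and 1952 (exact *P* = 0.0714) without the grafted W12 libraries. The causes of these shifts were not tested.

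Direction turned only in changes that were not called. Scaling by median ratios gave −0.049 for *Sox9* at W2 against D0 and 0.018 for *Sox4* at W12 against W6, and quantile normalization gave −0.021 and 0.027. With a replicate left out, *Sox9* ranged from −0.12 to 0.13 at W2 against D0, from −0.072 to 0.35 at W6 against D0 and from −0.078 to 0.34 at W6 against W2. *Sox6* ranged from −0.93 to 1.13 at W6 against W2 and from −0.49 to 1.57 at W12 against W6, *Sox4* from −0.34 to 0.043 and *Sox15* from −0.017 to 0.17 at W12 against W6.

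Replicate numbers did not pair the libraries, since same-numbered deviations correlated between −0.129 and 0.182. With a replicate block, members called at W2 against D0 were 3 in place of 5, and all genes called at W2 against W1 were 6 in place of 15. Crossed pairings called 1225 genes at W1 against D0, 4291 at W6 against D0 and 2666 at W12 against W6. Over all genes above 0 TPM, 606 were called at W1, 1011 at W2 and 940 at W6 against W2, in place of 1296, 2058 and 2137, as more genes were tested.

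With 2 libraries a timepoint, unknown depth and a coding sequence in common, neither the counting error nor the split of reads between MYC-SOX9 and *Sox9* was measured.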

Other observations

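The W12 libraries also stood apart in keratins of simple epithelium. *Krt8* had 46.3 and 145 TPM and *Krt18* 32.9 and 105 TPM at W12, against at most 5.84 and 3.80 TPM in the other 8 libraries. The log2 change of *Krt8* against D0 was 6.33 (SE 0.69, adjusted *P* = 0.000246), and *Krt18* passed the filter only through W12, so that no test of it is given. They stand in a list of 5 Merkel cell markers whose sum was 80.2 to 253 TPM at W12 and 0.0643 to 9.66 TPM elsewhere. *Atoh1*, the defining factor of these cells, was listed at 0 in both W12 libraries, whereas *Krt20* (0.258 and 0.544 TPM against at most 0.0109 TPM elsewhere) and *Isl1* (0.713 and 1.44 TPM against at most 0.780 TPM elsewhere) had their highest means there. *Krt8* and *Krt18* were higher in the replicate that was also higher in *Sox17* and *Sox18*. *Cd34*, whose product the sort was against, had 16.5 and 32.0 TPM at W12 and between 0.0475 and 5.04 TPM elsewhere. *Cd74*, of the antigen presentation pathway, had 102 and 124 TPM at W12 against 2.09 to 26.4 TPM elsewhere.

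The summed TPM of 6 hair follicle markers was 230 to 392 at D0, 2177 to 2762 at W1, 3088 to 3894 at W2, 2432 to 6549 at W6 and 369 to 599 at W12. Most of it was *Krt79*, which made up 2045 of 2177 TPM in W1 replicate 1 and 6417 of 6549 TPM in W6 replicate 1, and the means of *Lhx2*, *Lgr5*, *Cd34* and *Tbx1* were lower at W1 than at D0, none of them called. The W12 range of the sum overlapped that of D0, although at W12 *Cd34* (4.31, adjusted *P* = 5.77e-05) and *Tbx1* (2.16, adjusted *P* = 0.00120) were called higher and *Lrig1* (−2.28, adjusted *P* = 0.00383) lower, and the 2 W6 libraries lay farther apart than those of any other timepoint. Sums of 6 fibroblast and dermal papilla markers reached at most 2.47 TPM and those of 4 muscle markers 0.642 TPM. The sum of 4 sebaceous markers was 85.9 to 99.0 TPM at D0, 195 to 198 TPM at W1, 413 to 432 TPM at W2, 308 to 389 TPM at W6 and 267 to 344 TPM at W12. *Mgst1*, which made up 338 of 432 TPM in W2 replicate 1, was called higher than at D0 at all 4 timepoints, and *Plin2* at W1 and W12. *Scd1* was called lower at W1 (−0.84, adjusted *P* = 0.0279) and W12 (−0.55, adjusted *P* = 0.0478) and higher at W6 (0.76, adjusted *P* = 0.0175). *Pparg*, too low to be tested, was listed at 0 in both W1 libraries. The sum of 5 immune markers, nearly all of it *Cd74*, was 102 to 125 TPM at W12 and 2.79 to 27.0 TPM elsewhere. Of the other markers, none of which was above 0.956 TPM, *Cd3e* and *Cd207* had their lowest means at W12. *Lyz2* had its highest mean at W12 (0.171 and 0.956 TPM). *Ptprc* had 0.0184 and 0.327 TPM at W12, against 0.0390 and 0.0703 TPM at D0. Sums of 7 melanocyte markers were 11.8 to 13.5 TPM at W12 and 2.03 to 12.9 TPM elsewhere, those of 4 Schwann markers 16.8 to 29.1 TPM at D0 and 7.23 to 17.1 TPM after DOX. The sum of 5 suprabasal markers was 1022 to 2267 TPM, and its ranges at W1, W2, W6 and W12 each overlapped that of D0. Most of it was *Krt1* and *Krt10*, called at no timepoint against D0, while the other markers had at most 38.7 TPM. Of these, *Ivl* was called higher at all 4 timepoints (2.02, adjusted *P* = 0.00140 at W1). *Flg* was called higher at W2 and W6 (3.20 and 3.21, adjusted *P* = 0.00815 and 0.00451), and *Lor* lower at W12 (−2.60, adjusted *P* = 0.00190).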
